A study of Mus musculus with 8 samples.

Results

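The 3 genes described here, Tnnt2, Tpm1 and Acta1, encode proteins of the thin filament of the sarcomere. They were chosen by the gene ID of each peak, and 6 of the 581 m6A peaks in the tables of 2 comparisons belonged to them. The table of aavFto against aavgnp held 5 of its 465 peaks in the 3 genes, with 1 in Tnnt2, 3 in Tpm1 and 1 in Acta1. The table of MI against sham held 1 of its 116 peaks in them, in Tpm1. No other peak, on either strand, lay at these 3 loci in either table.

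N6-methyladenosine (m6A) is a methyl group on adenosines of RNA, and FTO is a demethylase that can remove it. Left ventricles of C57BL/6 mice labelled wild type were taken 1 week after surgery. MeRIP-seq, in which an antibody against m6A enriches RNA fragments that are compared with input RNA, was done for hearts with myocardial infarction (MI), sham-operated hearts, infarcted hearts labelled aavFto and infarcted hearts labelled aavgnp. Each of these 4 conditions had 1 MeRIP and 1 input library, 8 in all. Both vector groups carried the infarct, and the labels give neither the promoter nor the cell type in which a vector acts, nor how many animals were pooled. The deposited tables give 1 value per peak and comparison and no value per library, so depth is unknown and no difference has a replicate check. The authors' p-values and false discovery rates (FDR) therefore compare libraries and not conditions. A log2 change is read as MI over sham and as aavFto over aavgnp, which the file headers do not state. The opposite reading would turn every sign below.

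The thin filament is a polymer of actin along which tropomyosin and the troponin complex lie. When calcium binds troponin C, the troponin complex and tropomyosin shift on the filament and let myosin heads attach. Tnnt2 encodes cardiac troponin T, which anchors the complex to tropomyosin. Tpm1 encodes alpha-tropomyosin and is spliced into many isoforms. Acta1 encodes skeletal alpha-actin, which the fetal and the stressed ventricle also express beside cardiac alpha-actin.

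A peak in these tables is a chain of blocks on the genome, joined across the gaps between them, and its length is the sum of its blocks. The Tnnt2 peak lay on the plus strand of chromosome 1 (mm10, 135836394 to 135852268) and had 17 blocks with a length of 1197 nt. It began 79 nt after the start of the RefSeq gene span, 60 nt after the start site used here, and ended on the last base of the RefSeq gene span, so that its outer ends took in 99.5% of that span. The blocks were 9 to 242 nt long, the longest being the 3′-most, and the gaps were 103 to 4414 nt. The peak is therefore a region along nearly the whole gene and does not place a methylated base. The Acta1 peak lay on the minus strand of chromosome 8 (123891936 to 123893705) and had 6 blocks of 137 to 325 nt, 1215 nt in all. It left out the first 1070 nt of the gene and ended 178 nt before the 3′ end of the gene span. The exons and untranslated regions of the 3 genes were not used here, so blocks are not assigned to them.

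The Tpm1 peaks lay on the minus strand of chromosome 9 and lay in a row along the gene. The 5′ peak (67043869 to 67049213) had 4 blocks and 450 nt, the middle peak (67029714 to 67043630) 9 blocks and 690 nt, and the 3′ peak (67027993 to 67029086) 2 blocks and 241 nt. The 5′ end of the 5′ peak fell exactly on the 1 RefSeq start site given for Tpm1, 459 nt inside the RefSeq gene span, the stretches between the peaks were 238 and 627 nt of genomic sequence, and the 3′ peak ended 5403 nt before the end of the gene span. Together the 3 peaks covered 1381 nt in 15 blocks.

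The starts of the 3 transcripts show which 5′ ends the peaks take in. The first 30 bases after 1 RefSeq start site of each gene, on GRCm38.p6, the assembly of mm10, are printed 5′ to 3′ on the strand of the gene. Capitals mark the letters GGAC, a frequent core of m6A sites. For Tnnt2, which has 2 start sites in RefSeq, the more upstream was used and the other is not shown.

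Tnnt2, chr1:135836334-135836363, plus strand: acaaggccccagcccacatgcctgcttaaa

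Tpm1, chr9:67049184-67049213, minus strand: gctcgcactccggctctgctaccccaccgc

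Acta1, chr8:123894746-123894775, minus strand: acctgtgcaaggGGACaggcggtcacacgg

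All 30 bases shown for Tpm1 lay inside its 5′ peak, and none of those shown for Tnnt2 and Acta1 lay inside a listed peak. On the gene's own strand GGAC occurred 2 times in the first 50 bases of Acta1, 0 times in those of Tpm1 and 0 times in those of Tnnt2. The same letters stood in 18.9% of the 32851 windows of 50 bases after RefSeq start sites. A match is a description of these letters and marks no site.

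**Figure D1:**
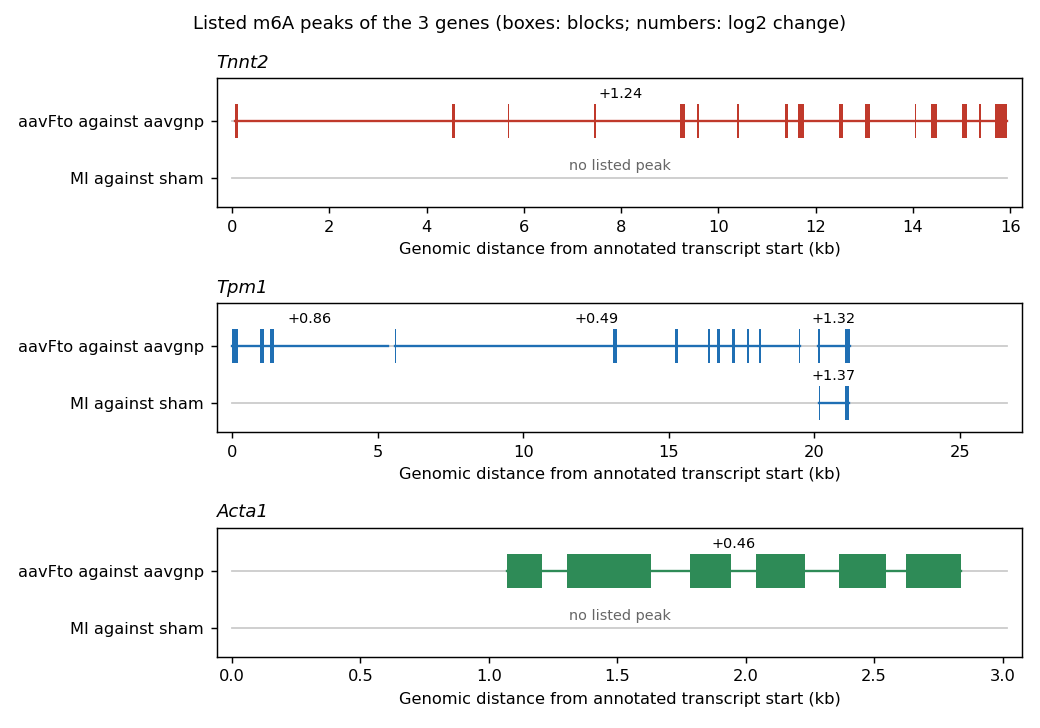
Listed peaks of Tnnt2, Tpm1 and Acta1 against genomic distance from the annotated transcript start in kb, with boxes for blocks, coloured lines across the gaps, grey lines for the gene and the authors' log2 change above each peak. The Tnnt2 peak runs over 17 blocks to the end of the gene, Tpm1 has 3 peaks in the aavFto table, and the MI table lists only the 3′ Tpm1 peak.

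The comparison of aavFto with aavgnp hearts addressed how a vector named for Fto goes with m6A in the infarcted ventricle. The Tnnt2 peak was higher in the aavFto than in the aavgnp libraries at the authors' FDR of 0.05, and the Tpm1 and Acta1 peaks were on the positive side without passing it. The Tnnt2 peak stood at a log2 change of 1.24 in the authors' deposited table, a 2.36-fold higher value in the aavFto libraries, with an FDR of 1.58e-11. Its differential p of 3.98e-14 was the lowest of all 465 peaks, while its log2 change ranked 77th by absolute size. Past the FDR in the positive direction were 1 of 5 peaks of the 3 genes, against 1.72% of all listed peaks (8 of 465). All 8 were among the 93 peaks with the lowest enrichment p, where they make up 8.60% and where the 5 peaks of the 3 genes also lie.

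The values of the 3 Tpm1 peaks differed among themselves. In the authors' deposited table the log2 change was 0.86 for the 5′ peak (p = 0.0363), 0.49 for the middle peak (p = 0.0708) and 1.32 for the 3′ peak (p = 0.384). Each of these 3 peaks had an FDR of 0.713, the value that 443 of the 465 peaks carry. The largest of the 3 changes thus stood at the shortest peak and had the highest p. At an unadjusted p under 0.05, 2 of the 5 peaks of the 3 genes passed, those of Tnnt2 and the 5′ end of Tpm1, against 3.87% of all peaks that passed on the positive side. The table gives no error for a change, and differences among the 3 Tpm1 peaks were not tested.

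The Acta1 peak had the smallest log2 change among the 5, 0.46 in the authors' deposited table (p = 0.455, FDR 0.713). It was 0.78 below that of Tnnt2 on the log2 scale, a difference that was not tested. A log2 change of at least 1 was reached by 2 of the 5 peaks, those of Tnnt2 and the 3′ end of Tpm1, and by 11.8% of all peaks on the positive side.

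All 5 peaks were positive, against 32.7% of the 465 peaks (152 of 465), whose median log2 change was -0.61. Of the 93 peaks with the lowest enrichment p, 63.4% were positive. Without the 5, these had 61.4% positive peaks and a median log2 change of 0.26, so strong peaks of other genes were also positive in most cases. Among the 47 other peaks whose enrichment p was no higher than that of the weakest of the 5, 68.1% were positive, with a median of 0.55. The median over the 5 peaks was 0.86, but 3 of them lie in 1 gene and are not replicates. Measured from the table's median, the Tnnt2 change was 1.85 and the Acta1 change 1.06. Measured from the median of those 93 strongest peaks, 0.30, they were 0.94 and 0.15, and the middle Tpm1 peak stood at 0.18.

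**Figure D2:**
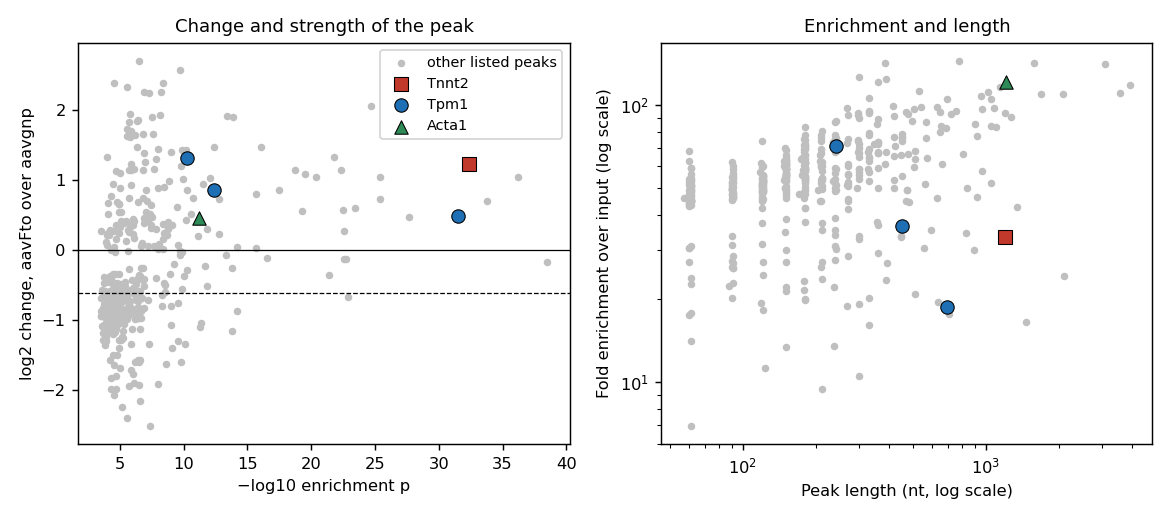
Left, log2 change (aavFto over aavgnp) against the -log10 enrichment p of each of 465 peaks, with a solid line at 0 and a dashed line at the median of -0.61; right, fold enrichment over input against peak length, both on log scales. The 5 coloured peaks are all above 0 and among the 93 peaks with the lowest enrichment p. By fold enrichment their median is 36.5, against 54.3 over all 465 peaks. Acta1 lies far above Tnnt2 in fold enrichment at nearly the same length.

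Strength of enrichment did not follow the same order in the 3 genes as its p-value. The authors' deposited table gave the Acta1 peak a fold enrichment over input of 121 (log10 p of -11.2) and the Tnnt2 peak 33.3 (log10 p of -32.4). The Acta1 value was 3.63 times that of Tnnt2, although the peaks differed in length by only 18 nt. By fold enrichment Acta1 ranked 7th and Tnnt2 403rd of 465, and by enrichment p they ranked 46th and 4th. Within Tpm1 the authors' deposited table gave 36.5 for the 5′ peak (log10 p of -12.4), 18.7 for the middle peak (log10 p of -31.5) and 71.3 for the 3′ peak (log10 p of -10.3), a range of 3.81 times. The middle peak was thus the least enriched over input of the 5 and, after Tnnt2, had the lowest enrichment p. Compared with a median of 181 nt and 1 block over the table, the 5 peaks had a median of 690 nt and 6 blocks. The sign of the change also went with block number. Of the 31 peaks with at least 6 blocks, which include Tnnt2, Acta1 and the middle Tpm1 peak, 71.0% were positive (median log2 change 0.55). Of the 242 peaks with 1 block 21.5% were positive (median -0.715).

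The comparison of MI with sham hearts addressed how m6A differs after infarction, and here only the 3′ end of Tpm1 was listed. The peak (67028023 to 67029056) had 2 blocks and 181 nt. In the authors' deposited table its log2 change was 1.37 with p = 0.312 and an FDR of 0.741, and a fold enrichment of 37.7. The peak did not pass, against 12.9% of the 116 peaks that passed on the positive side. A positive sign was found for 84.5% of the listed peaks, whose median was 1.92. The Tpm1 value was thus positive as deposited but 0.55 below that median, at -0.55, and at -0.11 from the median of its 24 peaks with the lowest enrichment p. Every listed change was at least 1.01 in size, so for Tnnt2 and Acta1 a change under 1 and the lack of a peak cannot be told apart.

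The MI peak of Tpm1 lay wholly inside the 3′ peak of the aavFto table. They shared 181 nt, which is 100% of the MI peak and 75.1% of the aavFto peak, and the aavFto peak reached 30 nt further at each end. No library is common to the 2 comparisons. The authors' deposited tables gave nearly equal log2 changes for this region, 1.37 in MI over sham and 1.32 in aavFto over aavgnp, neither past the FDR. Measured from the median of its own table, however, the region stood at -0.55 in MI over sham and at 1.93 in aavFto over aavgnp. Measured from the strongest peaks of each table it stood at -0.11 and 1.02, so the likeness is one of the values as deposited. These medians are unlike measures, since every listed MI change was at least 1.01 in size and aavFto changes went down to 0.0041. How much of the centred difference comes from this was not tested. The tables hold no test of a difference between the comparisons.

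**Figure D3:**
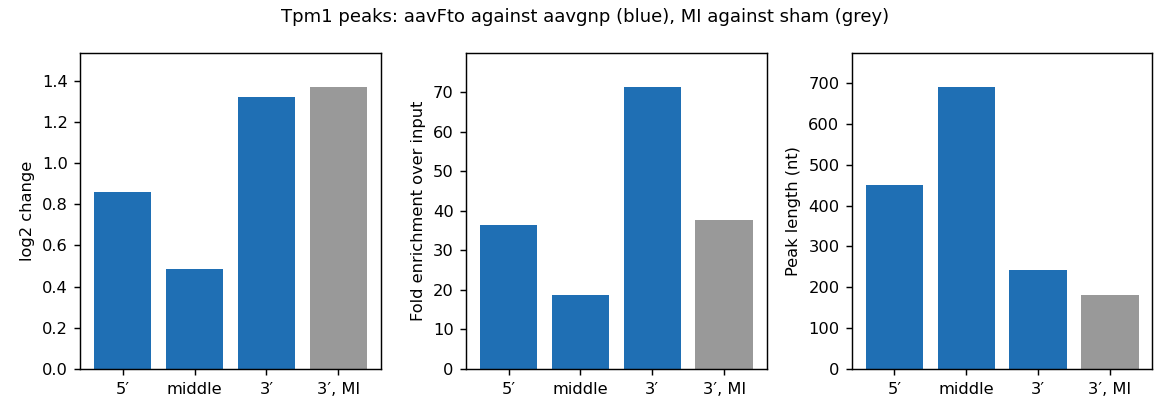
Log2 change, fold enrichment over input and length in nt of the Tpm1 peaks, in blue for aavFto against aavgnp in the order 5′, middle and 3′, and in grey for the MI against sham peak. The 3′ region has log2 changes of 1.32 and 1.37 as deposited (1.93 and -0.55 from the median of each table), and the longest peak, in the middle, has the smallest change and the lowest enrichment. The medians are unlike measures, because only the MI table lacks changes under 1.01 in size.

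Of a list of 20 thin filament genes, 8 were listed for aavFto against aavgnp and only Tpm1 for MI against sham. These counts are not alike, because the tables name 271 and 77 genes and only the MI table lacks changes under 1.01 in size. Taking each gene at its peak of lowest enrichment p, 7 of the 8 were positive and Lmod2 was negative, with a median log2 change of 0.47. Over all 271 named genes 34.7% were positive, with a median of -0.56. Tnnt2 alone of the 8 passed the FDR, against 1.85% of all named genes. Of a list of 12 thick filament genes set beside it, 8 were listed, 7 positive, with a median of 0.67, and 3 had a peak past the FDR.

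The other subunits of the troponin complex were listed with smaller values than Tnnt2. The authors' deposited table gave 0.86 (p = 0.156) for Tnnc1, the calcium-binding subunit, and 0.23 (p = 0.264) for Tnni3, the inhibitory subunit of the heart. For Actc1, the cardiac alpha-actin, the authors' deposited table gave 0.57 (p = 0.0851) at a peak of 7 blocks and 1339 nt with a fold enrichment of 42.9. For Tpm2, beta-tropomyosin, it was 0.24 (p = 0.682) at a short peak of 121 nt in the authors' deposited table. Lmod2, leiomodin, which lengthens thin filaments at their pointed end, had 3 peaks at -0.47, 0.32 and -0.62 in the authors' deposited table. Actb, the cytoplasmic beta-actin and the only listed gene of 4 other actins, stood at -0.77 (p = 0.604) in the authors' deposited table. The FDR of each of these peaks was 0.713. Actins are paralogs with near-identical proteins, and tropomyosins share long stretches. How many 50 nt reads match several of these genes was not measured here, and no source used here says how such reads were handled. The split of reads between Acta1 and Actc1, and between Tpm1 and Tpm2, is therefore uncertain.

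**Figure D4:**
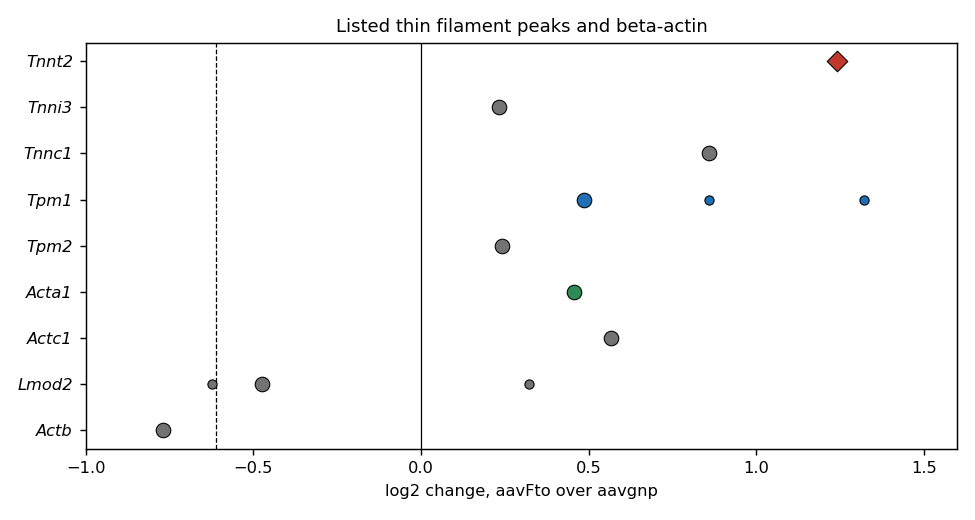
Log2 change (aavFto over aavgnp) of every listed peak of thin filament genes and of Actb, with large symbols for the peak of lowest enrichment p of each gene, a diamond for an FDR under 0.05, a solid line at 0 and a dashed line at the table's median of -0.61. Tnnt2 is the only diamond, and among the thin filament genes Lmod2 has the only peaks below 0.

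All 8 markers of cardiomyocytes, a list that includes Tnnt2, were listed in the aavFto table and 3 of 8 in the MI table, which names fewer genes and lacks small changes. At their strongest peaks 6 were positive and 2, Nppa and Ttn, negative with aavFto, with a median log2 change of 0.80 and 4 genes past the FDR in the authors' deposited table. For MI 1 of the 3 listed markers was positive and 2 were negative, with a median of -1.51 in the authors' deposited table. Past the FDR for MI were 2 of these 3 markers, against 8 of all 77 named genes. Of all 77 named genes for MI, 67 were positive. Markers of other cell types were listed as well. In the authors' deposited table for aavFto the 4 listed of 7 fibroblast genes were all negative at their strongest peak (-0.67 to -0.03). So were 1 of 6 macrophage genes, C1qa at -0.74, and 1 of 5 endothelial genes, Cdh5 at -0.69. Among the fibroblast genes, weaker peaks of Col1a1 at 1.65 and 0.17 and of Col1a2 at 0.05 were positive. The remaining fibroblast peaks with aavFto were negative. Negative was the usual sign at the strongest peak with aavFto, found for 177 of all 271 named genes. The median over all named genes was -0.56 and that of the 4 fibroblast genes -0.23. In the authors' deposited table for MI the 4 fibroblast genes were all positive, at 4.31 to 7.17, Cdh5 stood at 1.65 and no macrophage gene was listed. The median over all named genes for MI was 1.61, close to the value of Cdh5. None of 6 smooth muscle genes was listed in either table. Of 7 skeletal muscle genes Ckm (1.93) and Mb (0.47), which the heart also expresses, were listed in the authors' deposited table for aavFto. Input levels were not analysed here, so a change of methylation, of transcript level and of cell make-up cannot be told apart, and the part of other cell types in these values was not tested.

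Genes with the closest median log2 change and at least as many peaks were named for each gene from the aavFto table. For Tnnt2 they were App, the amyloid precursor (1.26), Myl2 (1.15), the ventricular regulatory light chain and the only one of these past the FDR, at 0.00646, and the lipid carrier Apoe (1.14), in the authors' deposited table. For Tpm1, with a median of 0.86, they were the elongation factor Eef1a2 (0.98), the kinesin Kif1c (0.39) and the ATP synthase subunit Atp5b (1.40), drawn from 41 genes with at least 3 peaks in the authors' deposited table. For Acta1 they were myoglobin, Mb (0.47), the natriuretic peptide Nppb (0.42) and the complex I subunit Ndufb8 (0.42) in the authors' deposited table.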

How the data were processed

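Per the submitters' processing notes, STAR 2.5.3a and the build mm10 were used for the 50 nt reads. No source used here names a peak caller or says how libraries were scaled. Per the file headers, each row holds the blocks of a peak and an Entrez gene ID. The deposited score column is the enrichment p-value. The authors also deposited enrichment and differential p and FDR as log10 values, fold enrichment over input as a linear ratio, and the change as a log2 value. No p-value was computed here: the authors' values were converted from log10 and read at an FDR of 0.05. The second group of the aavFto table is named null there, and was read as aavgnp from the labels.

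IDs were matched to a RefSeq table of GRCm38.p6, and all 449 and 105 peaks with an ID matched. The 16 and 11 peaks without an ID stayed in counts of peaks. Coordinates are 1-based. Peaks were called shared at an overlap of at least 1 bp of blocks on 1 strand. The overlap step was tested on simulated data. Every listed peak of the 3 genes was named, with every listed gene of the thin filament and other actin lists and up to 3 genes of closest median change. Members and lists were chosen with earlier results of these data known. Computation used Python 3.11.15 and pandas 2.3.3.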

Additional observations from a re-analysis of the deposited data

How the results depend on the processing

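No paired analysis was possible because each group had 1 library, and for the same reason no replicate could be left out. With aavFto, 1 peak of the 3 genes passed the FDR at thresholds of 0.01 and 0.1 and with a minimum log2 change of 1, and 2 passed at an unadjusted p of 0.05. Merging of overlapping peaks could not change a count of 1. The median of the 5 peaks was 0.86 as deposited, 1.47 from the median of all peaks, 0.56 from that of the 93 strongest peaks, 1.28 among peaks with a change of at least 1, 0.49 over the strongest peak of each gene and -0.86 with the sign turned. Positive peaks numbered 5 under both centrings, 2 with a change of at least 1, 3 over the strongest peak of each gene, where 3 remain in all, and 0 with the sign turned. Of the 8 listed thin filament genes, 8 were positive after subtraction of the table's median and 1 with the sign turned. In the MI table the Tpm1 value of 1.37 became -0.55 from the median of all peaks, -0.11 from that of the 24 strongest peaks and -1.37 with the sign turned, and positive peaks and positive thin filament genes were then 0. Those medians come from a list in which every change was at least 1.01 in size. The MI peak did not pass at FDR thresholds of 0.01 or 0.1 or at an unadjusted p of 0.05. Centring and turning the sign give no new p-value, so they cannot alter that. Its overlap with the aavFto peak held at a reciprocal overlap of 50%. Unknown depth limits every value here.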

Other observations

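Peak lengths lay close to a grid. Within 1 nt, 81.9% of the 465 peaks of the aavFto table and 86.2% of the 116 peaks of the MI table had a length that is a multiple of 30 nt, and so did 4 of the 6 peaks of Tnnt2, Tpm1 and Acta1. The 30 nt by which the 3′ Tpm1 peak of the aavFto table passes the MI peak at each end equals 1 step of that grid.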
